A study of Homo sapiens with 6 samples.

Results

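The genes described here code for synaptic adhesion proteins, which span the gap between a sending and a receiving nerve cell, and for the scaffold proteins that lie under the receiving membrane. They were chosen by name: the listed members of the neurexin, neuroligin, contactin, contactin-associated protein (CNTNAP), LRRTM, SLITRK, neuronal pentraxin, NCAM, CADM and L1 families were taken as adhesion genes, and those of the SHANK, DLG, DLGAP and HOMER families with gephyrin as scaffold genes. This gave 50 of the 47470 genes in the count files, 35 adhesion genes (the 3 pentraxin genes among them) and 15 scaffold genes. RNA was sequenced from HEK293T cells, an established line of human embryonic kidney origin that makes the large T antigen of SV40 and has the genotype WT in every library. The 3 untreated libraries came from cells that received nothing, and the 3 VPA-treated libraries from cells treated with valproic acid (VPA) at 1 mM for 1 day. VPA inhibits histone deacetylases. All 6 libraries are of this 1 line, which forms no synapses, so the values are RNA levels in a dividing cell line and say nothing of protein or of contacts. The sources do not say whether the libraries of a condition came from separate cultures, and the p-values measure the spread between these libraries, which may be technical. The samples are bulk RNA, in which more cells with a transcript and more of it per cell cannot be told apart.

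At a synapse, presynaptic neurexins bind postsynaptic neuroligins and LRRTM proteins across the cleft, SLITRK proteins bind receptor protein tyrosine phosphatases, and neuronal pentraxins gather AMPA-type glutamate receptors. Beneath the membrane of an excitatory synapse, DLG proteins such as PSD-95 hold receptors and neuroligins, DLGAP proteins link DLG to SHANK proteins, and HOMER proteins join SHANK to metabotropic glutamate receptors, while gephyrin anchors glycine and GABA-A receptors at inhibitory synapses. Many of these families also work elsewhere: contactin 1, CNTNAP1 and neurofascin at the nodes of Ranvier of myelinated axons, NCAM and CADM proteins in cell contacts of many tissues, and DLG1 and DLG5 in the polarity of epithelial cells.

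Between 18622267 and 18828495 counts fell on genes in a library, so depth was close to even. Of the listed genes 15298 had enough counts to be tested by edgeR's quasi-likelihood method, with p-values adjusted over all of them after Benjamini and Hochberg. A gene is called up-regulated or down-regulated here where its adjusted p was below 0.05 and its log2 fold change 1 or more in size, and higher or lower where it met the first of these alone. Positions are those of RefSeq on GRCh38.p14. Values per library are normalized counts, scaled by TMM to the mean library and not divided by gene length, and each ± is an SD over 3 libraries. Sums and shares of a family cover its listed members alone. None of these lie on chromosome X, whose 1437 listed genes had no count in any library. The 7 genes common in HEK293 cells that were listed for a check of the cell type all had counts, summed to between 16274 and 16794 normalized counts in untreated and between 14474 and 15166 in VPA-treated libraries, with VIM the most abundant. KRT8 and PAX2 were up-regulated and KRT18 was higher, VIM, CDH2 and LIN28B were lower, and GATA3 did not pass. Genes of mature neurons were also counted, and 9 of the 10 listed had a count. Their sum rose from between 1204 and 1219 to between 1996.5 and 2095.5 normalized counts, with INA the most abundant, at 830.5 ± 26.5 and then 1077 ± 71.2. Of the 6 tested 5, among them SNAP25, RBFOX3 and MAP2, were up-regulated, against 12.0% of all genes tested. SNAP25 had 2 counts in each untreated library and was tested only because of its VPA-treated libraries. STMN2, ELAVL3 and ELAVL4 had too few counts to be tested, and SYP on chromosome X was listed at 0 as is every gene of that chromosome. The glia list moved as well, from between 232 and 256 to between 506 and 521 normalized counts with SOX10 at 0, the endothelium list from between 10.4 and 20.9 to between 136 and 169.5, and the kidney list from between 847 and 990.1 to between 1482 and 1501, nearly all of it LRP2, with UMOD at 0, while the immune list went from between 41.4 and 47.2 to between 19.2 and 34.5. The part of these markers in the changes of the synaptic genes was not tested.

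Of the 50 genes 36 passed the filter, 11 had counts but fell under it, and 3 were listed at 0 in every library. The up-regulated genes numbered 15 of the 36 tested, against 12.0% of all genes tested, and 0 were down-regulated, against 0.503%. With DESeq2 the share was 7.51% of all 26353 genes with a count. These include genes it left without an adjusted p, so the share is not directly comparable with 12.0%. Among genes that averaged 50 counts it was 7.98%. In these settings 17 and 13 members were up-regulated. At the adjusted p alone 30 were higher (32.9% of all genes tested) and 2 were lower (30.0%), and 4 did not pass. In 28 of the 36 every VPA-treated library lay above every untreated library, as in 34.8% of all genes tested, and in 2 every VPA-treated library lay below, as in 31.0%. The median log2 fold change was 0.75 over the 36 genes and 0.0058 over all genes tested. Among the 36 are 4, SLITRK1, SLITRK6, NCAM2 and DLGAP3, that passed the filter only with the VPA-treated libraries. SLITRK6 and NCAM2, with 0 untreated libraries at the filter, had to differ in order to be tested. SLITRK1 had 1 untreated library at the filter and DLGAP3 had 2. The counts above therefore describe the genes that passed and not all 50. The number of the 50 genes with at least 1 count was 38 or 39 in the untreated libraries and 45 in each VPA-treated library. The up-regulated genes are spread over 9 chromosomes. Small changes depend on the scaling: over all genes tested the median log2 fold change was 0.071 by upper quartile, 0.14 by library totals and 0.27 where ribosomal protein genes set the scale, and the higher genes made up 63.0%, 73.9% and 91.1% of those past the adjusted p in place of 52.3%.

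**Figure D1:**
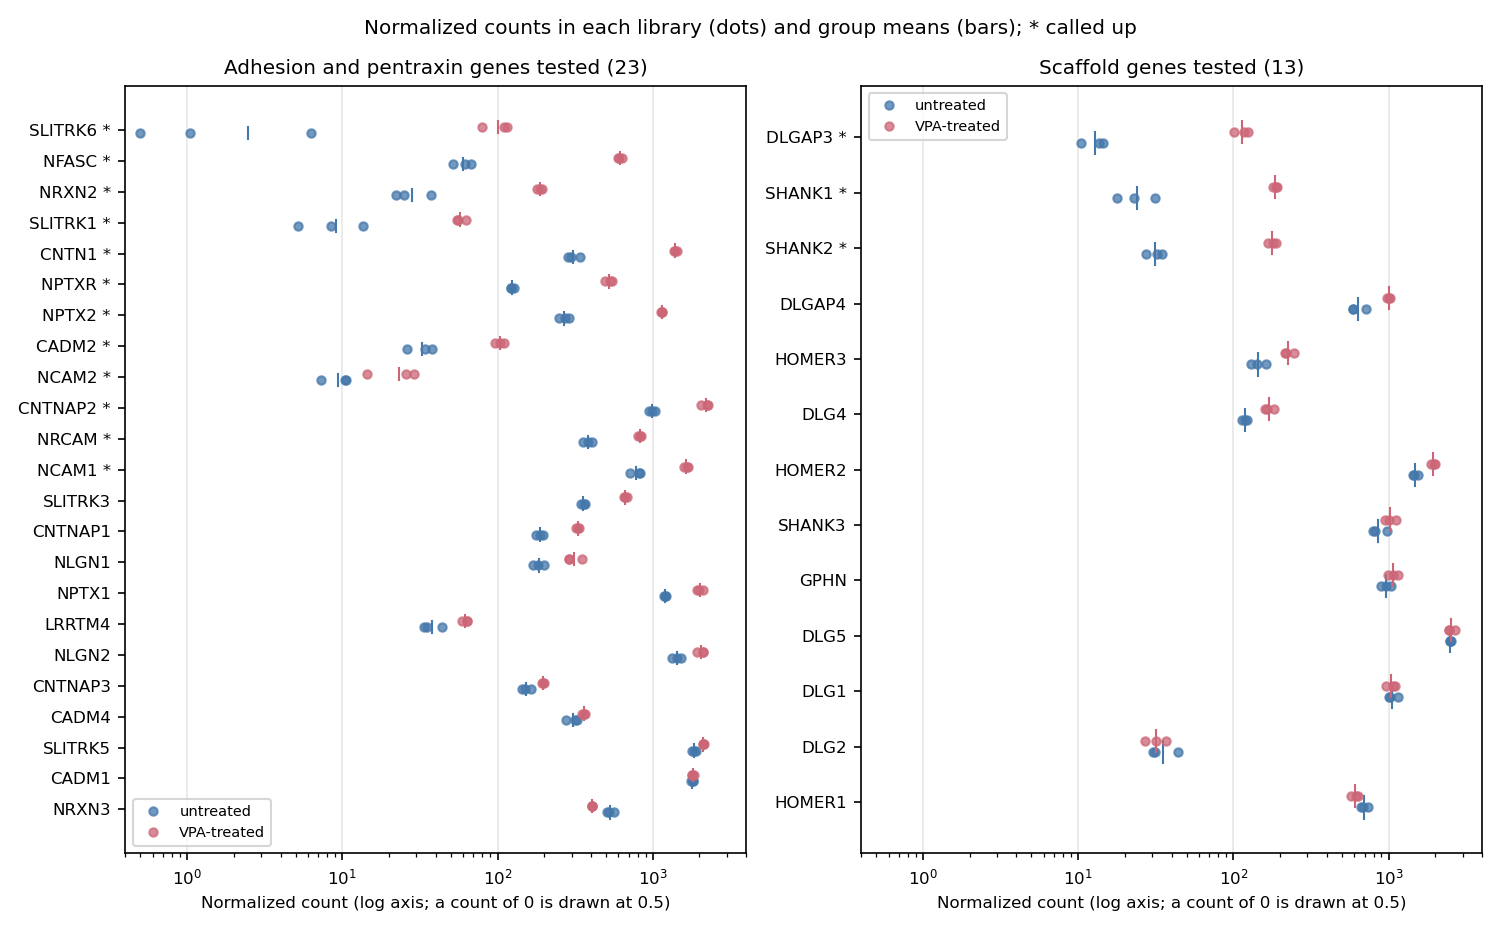
Normalized counts (log axis) of the 23 adhesion genes and the 13 scaffold genes tested, with a dot for each of the 3 untreated and 3 VPA-treated libraries, a bar for each group mean, and an asterisk on genes called up-regulated. The points of the conditions stand apart in all rows of the left panel but that of CADM1, from SLITRK6 at the top to NRXN3 at the bottom, where the VPA-treated libraries are the lower ones, while in 5 of the 13 rows of the right panel the conditions overlap.

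Adhesion and scaffold genes both held strong increases beside small changes. Of the 23 adhesion genes tested 12 were up-regulated, 21 were higher and 1, NRXN3, was lower, with a median log2 fold change of 1.07. Of the 13 scaffold genes tested 3 were up-regulated, 9 were higher and 1, HOMER1, was lower, with a median of 0.40. As shares of the tested genes, 52.2% of the adhesion genes and 23.1% of the scaffold genes were up-regulated, and the difference between the 2 shares was not tested. Over all genes tested 12.0% were up-regulated, 32.9% were higher and 30.0% were lower. The calls include SLITRK1, SLITRK6 and NCAM2 among the adhesion genes and DLGAP3 among the scaffold genes. These passed the filter only with the VPA-treated libraries. Summed over each list, adhesion genes went from 11042 ± 187 to 19148 ± 137 normalized counts (SD, n = 3 each), 1.73 times the untreated sum, and scaffold genes from 8550 ± 177 to 10124 ± 47.1, 1.18 times. The lists differ in level too, as set out further on, and few-count genes were called more often throughout the data.

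**Figure D2:**
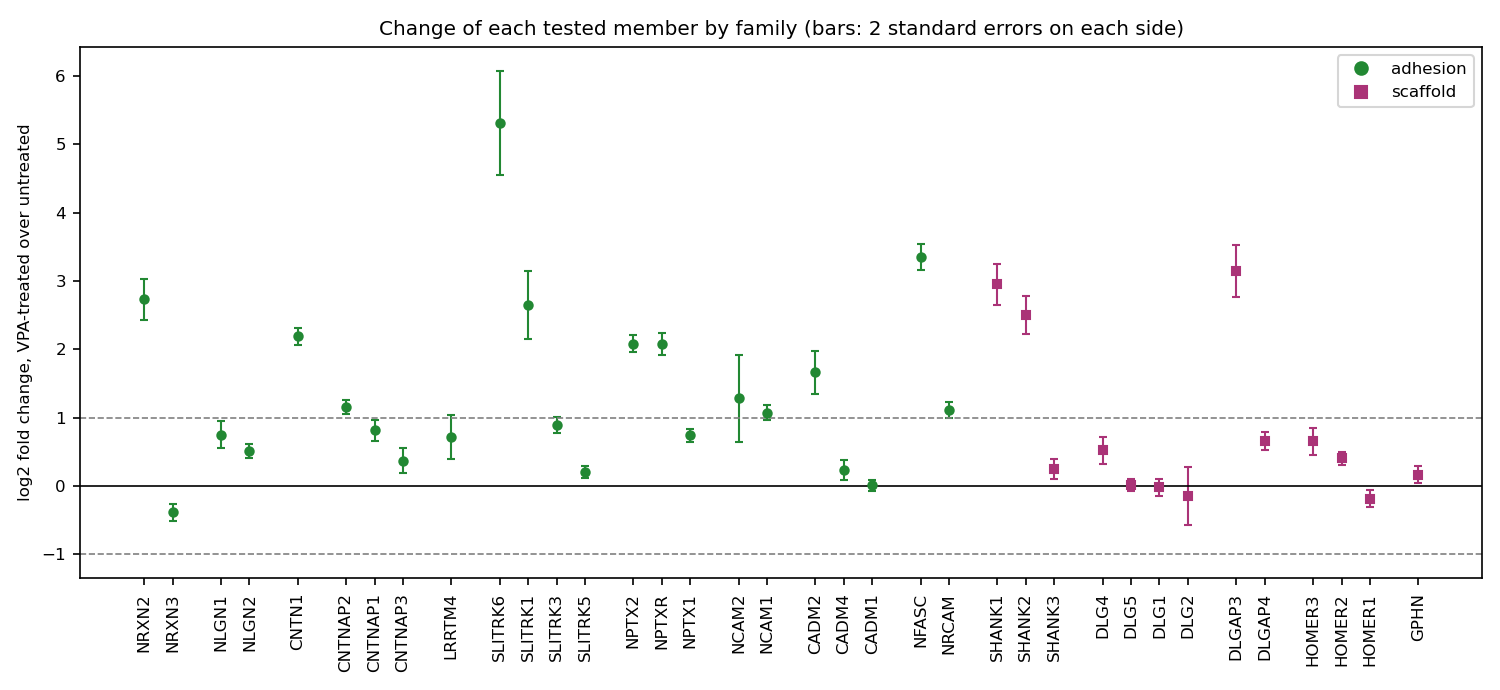
Log2 fold change (VPA-treated over untreated) of each of the 36 tested genes, grouped by family, with adhesion genes as circles and scaffold genes as squares and bars of 2 standard errors on each side. Several families hold both a member far above the dashed line at 1 and a member near 0, as SHANK1 and SHANK3 or CADM2 and CADM1, and the bars of NRXN3 and HOMER1 lie below 0.

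The sequences before the starts of 4 genes are shown because these genes span the range of responses: NFASC and SLITRK6 had the largest fold changes, NPTX2 a strong change at a high count, and NRXN3 the largest decrease. They are RefSeq sequences on GRCh38.p14, the 250 bases before the outermost listed start, read 5′ to 3′ on the strand of the gene. Capitals mark matches on either strand to the motifs searched, namely the GC box as GGGCGG, the CCAAT box, the TATA box as TATAAA, the core of the cAMP response element as TGACG, and the left and right parts of the RE1 site, bound by the neuronal repressor REST, as CAGCACC and as GGACAGC. The windows are chr1:204828402-204828651 on the plus strand for NFASC, chr7:98617035-98617284 on the plus strand for NPTX2, chr13:85799420-85799669 on the minus strand for SLITRK6 and chr14:78170123-78170372 on the plus strand for NRXN3.
NFASC: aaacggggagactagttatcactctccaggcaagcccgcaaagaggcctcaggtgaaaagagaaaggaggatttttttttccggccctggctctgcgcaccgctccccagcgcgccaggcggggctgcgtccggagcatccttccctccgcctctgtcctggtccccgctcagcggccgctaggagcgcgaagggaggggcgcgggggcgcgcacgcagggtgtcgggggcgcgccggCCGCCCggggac
NPTX2: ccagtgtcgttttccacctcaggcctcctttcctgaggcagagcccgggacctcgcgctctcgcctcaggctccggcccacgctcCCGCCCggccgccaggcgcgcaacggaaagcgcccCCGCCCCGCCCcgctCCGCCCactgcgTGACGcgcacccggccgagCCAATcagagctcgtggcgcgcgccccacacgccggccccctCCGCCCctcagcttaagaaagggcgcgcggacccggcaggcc
SLITRK6: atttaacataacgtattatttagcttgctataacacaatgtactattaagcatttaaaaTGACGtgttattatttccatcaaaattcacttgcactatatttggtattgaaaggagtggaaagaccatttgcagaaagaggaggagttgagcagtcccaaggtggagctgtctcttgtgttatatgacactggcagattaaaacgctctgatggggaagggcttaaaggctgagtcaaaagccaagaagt
NRXN3: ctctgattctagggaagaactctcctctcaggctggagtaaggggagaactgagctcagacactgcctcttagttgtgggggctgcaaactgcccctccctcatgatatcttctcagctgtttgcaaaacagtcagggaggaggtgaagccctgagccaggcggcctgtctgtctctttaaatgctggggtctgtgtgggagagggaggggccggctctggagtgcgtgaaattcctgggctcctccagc

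The NFASC window holds 27 CpG dinucleotides and 1 GC box, on the opposite strand and close to the start. The NPTX2 window is the richest of the 4, with 34 CpG, 5 GC boxes, 1 CCAAT and 1 TGACG. SLITRK6 has a window with 3 CpG and 1 TGACG, and this first NRXN3 window has 3 CpG and none of the motifs, although RefSeq lists further starts for NRXN3 within the gene. So the outermost windows of genes with strong increases were both CpG-rich and CpG-poor. NFASC has a further start too, whose window at chr1:204870612-204870861 holds 9 CpG and no GC box. A further NRXN3 window, at chr14:79279130-79279379, holds 24 CpG and 3 GC boxes. Which start these cells use was not tested. The table of promoters held 38 of the 50 genes, with 76 promoters, and not NRXN2, NPTXR, NCAM1, CADM2, SHANK1, SHANK2 or DLGAP3 among the up-regulated genes. In windows of 300 bases, which run on for 50 bases past the start, the GC box was in 44.7% of these promoters and in 45.0% of all 35116, CCAAT in 31.6% and 34.6%, TATAAA in 6.58% and 11.5%, TGACG in 19.7% and 24.6%, CAGCACC in 11.8% and 7.75%, and GGACAGC in 5.26% and 6.03%. The 13 promoters of 8 up-regulated genes had a median of 9 CpG and 49% GC, and the 63 of other members 15 CpG and 61% GC, beside 14 and 58.7% over all promoters. These matches are a description of the letters and show no binding.

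Among the neurexins, the presynaptic receptors of the synapse, the 2 members measured moved in opposite directions. NRXN2, at chr11:64606174-64723197 (minus strand), had 37.3, 25.1 and 22.0 normalized counts in the untreated and 195, 179 and 189 in the VPA-treated libraries. All treated libraries lay far above all untreated ones, and NRXN2 was up-regulated 6.66-fold, with a log2 fold change of 2.73 ± 0.15 (standard error) and an adjusted p of 9.71e-13 by edgeR's test. NRXN3, at chr14:78170373-79868291 (plus strand) and one of the longest genes of the genome, had 509, 520.3 and 566 untreated and 407, 405 and 405 treated normalized counts. The treated libraries lay close together below the lowest untreated one, and NRXN3 was lower, with a log2 fold change of -0.39 ± 0.064 (adjusted p = 1.77e-05, edgeR), a value that was -0.13 and no longer past the threshold when ribosomal protein genes set the scale (adjusted p = 0.086). Per kilobase of exon NRXN3 remained the more abundant transcript, at 34.2 ± 1.9 and then 26.1 ± 0.093 normalized counts per kilobase against 2.01 ± 0.58 and 13.4 ± 0.55 for NRXN2. The share of NRXN2 in the pair so calculated went from 5.58% ± 1.7 to 33.9% ± 0.86.

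Both listed neuroligins, postsynaptic partners of the neurexins, were higher without being called up-regulated. NLGN2, the neuroligin of inhibitory synapses, had 1532, 1337 and 1440.5 untreated and 2103, 1933 and 2096 treated normalized counts, a log2 fold change of 0.51 ± 0.052 (adjusted p = 2.29e-08, edgeR). The groups of NLGN2 did not overlap. NLGN1, which acts at excitatory synapses, was also higher, with a log2 fold change of 0.75 (adjusted p = 6.31e-07, edgeR) from 184 ± 16.0 to 310.0 ± 36.7 normalized counts (SD, n = 3 each). NLGN2 made up 96.1% ± 0.3 of the pair per kilobase in untreated and 95.4% ± 0.45 in treated cells. Another of the listed families that bind neurexins, the leucine-rich repeat proteins LRRTM1 to LRRTM4, was barely transcribed. LRRTM4, its member with the most counts, had 35.2, 44.0 and 33.6 untreated and 63.3, 58.8 and 63.2 treated normalized counts. All treated libraries were above the untreated ones in LRRTM4, which was higher by 0.71 ± 0.16 on the log2 scale (adjusted p = 0.000721, edgeR), and the other LRRTM genes were under the filter.

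CNTN1 stood alone among the contactins, the immunoglobulin-type adhesion molecules tethered to the membrane by a lipid anchor. This gene, at chr12:40692439-41072415 (plus strand), had 283, 298 and 338 untreated and 1380.2, 1383 and 1439 treated normalized counts. Treated libraries were tightly grouped and well above the others, and CNTN1 was up-regulated 4.57-fold, with a log2 fold change of 2.19 ± 0.063 and an adjusted p of 3.05e-17 by edgeR's test. CNTN2 to CNTN6 had at most 7 counts over the 3 libraries of a condition. CNTNAP2, at chr7:146116801-148420998 (plus strand), codes for the axonal partner of contactin 2 and takes up more of the genome than any other of the 50 genes. It had 989.9, 949 and 1033 untreated and 2055, 2284 and 2241 treated normalized counts. Again no libraries overlapped, and CNTNAP2 was up-regulated with a log2 fold change of 1.15 ± 0.051 (adjusted p = 3.39e-14, edgeR). CNTNAP1, the partner of contactin 1 beside the nodes of Ranvier, went from 187 ± 9.23 to 329 ± 6.42 normalized counts and was higher by 0.81 on the log2 scale (adjusted p = 1.4e-08, edgeR). CNTNAP3 was higher by 0.37 (adjusted p = 0.00159, edgeR), a value that is uncertain because near-identical copies, CNTNAP3B, CNTNAP3C and CNTNAP3P2, can take or lose its reads. Of these copies CNTNAP3P2 was higher by 0.77 and CNTNAP3B did not pass the test. CNTNAP1 overlaps CCR10 on the opposite strand, and CCR10 was up-regulated, from 19 to 58 counts, with a log2 fold change of 1.47 (adjusted p = 0.00108, edgeR). The strand setting of the counting is not given in the sources used here.

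The 4 SLITRK genes measured, which code for postsynaptic leucine-rich repeat proteins that induce synapse formation, gave both the largest and some of the smallest changes. SLITRK6, at chr13:85792790-85799419 (minus strand), had 0, 1.05 and 6.30 untreated and 109, 79.0 and 116 treated normalized counts. It was near the limit of detection in untreated cells, with 7 counts in all against 317 in treated cells, a ratio of 41.6 at equal depth with an exact interval of 20 to 104 that covers counting error only (95%). Its fitted log2 fold change was 5.31 ± 0.38 (adjusted p = 2.05e-09, edgeR), and it rested on untreated replicate 3, which held 6 of the 7 counts: without that library it was 7.29. SLITRK1 had 5.18, 13.6 and 8.40 untreated and 54.6, 62.6 and 55.5 treated normalized counts. Here too the groups stood apart, and SLITRK1 was up-regulated with a log2 fold change of 2.65 ± 0.25 (adjusted p = 8.07e-09, edgeR). SLITRK5, the member with the most counts, had 1905, 1837 and 1792 untreated and 2129.7, 2112 and 2103 treated normalized counts. The treated libraries were only slightly above the others, and SLITRK5 was higher by 0.20 ± 0.043 on the log2 scale (adjusted p = 0.000399, edgeR). SLITRK3 went from 357 ± 13.3 to 664 ± 16.3 normalized counts (SD, n = 3 each) and was higher by 0.89 (adjusted p = 4.95e-11, edgeR). SLITRK1, SLITRK6 and SLITRK5 lie in this order on chromosome 13, between 83877205 and 87679616, so that neighbours in 1 region changed by very different amounts.

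All 3 neuronal pentraxin genes were higher, and 2 of them were up-regulated by almost the same factor. NPTX2, at chr7:98617285-98629869 (plus strand), codes for a secreted pentraxin made after neuronal activity and had 289, 248 and 272 untreated and 1125, 1155 and 1151 treated normalized counts. NPTXR, at chr22:38818452-38844028 (minus strand), codes for the membrane-bound member and had 127, 121 and 123 untreated and 494, 549 and 534 treated normalized counts. In both genes the treated libraries were several times above the untreated ones with little spread. The log2 fold change was 2.08 ± 0.062 for NPTX2 (adjusted p = 6.27e-17) and 2.08 ± 0.082 for NPTXR (adjusted p = 4.59e-15), both in edgeR. NPTX1, the most counted of the family, had 1198, 1226 and 1175 untreated and 2124, 1984 and 1922 treated normalized counts. It was higher in every treated library, by 0.74 ± 0.048 on the log2 scale (adjusted p = 1.49e-11, edgeR), and stayed under the fold threshold. Per kilobase NPTX2 went from 31.6% ± 1.9 of the family to 50.1% ± 1, and NPTX1 from 60.8% ± 1.9 to 38.0% ± 1.7, so that the 2 genes changed places as the most abundant member, although with coding length as the measure NPTX1 kept the larger share at 55.6%.

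The L1 family held the largest change of any member that averaged 100 normalized counts or more. NFASC, at chr1:204828652-205022822 (plus strand), codes for neurofascin, which gathers sodium channels at the axon initial segment and the nodes of Ranvier, and had 51.8, 61.8 and 67.2 untreated and 609.6, 633 and 598 treated normalized counts. The lowest treated library was many times above the highest untreated one, and NFASC was up-regulated 10.2-fold, with a log2 fold change of 3.35 ± 0.094 and an adjusted p of 2.39e-17 by edgeR's test. NRCAM, its relative at chr7:108147649-108456720 (minus strand), had 356, 381 and 406 untreated and 828, 801 and 847 treated normalized counts. Every treated library was higher, and NRCAM was up-regulated with a log2 fold change of 1.11 ± 0.062 (adjusted p = 1.24e-12, edgeR). CHL1, the third member listed, was at 0 in all 6 libraries. NRCAM kept most of the listed family per kilobase, while NFASC went from 5.58% ± 0.36 to 21.8% ± 0.98.

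NCAM1, the neural cell adhesion molecule CD56, had 809.8, 713 and 833 untreated and 1601, 1679 and 1662 treated normalized counts. The treated libraries were all above the untreated ones, and NCAM1 was up-regulated at the edge of the fold threshold, with a log2 fold change of 1.07 ± 0.055 (adjusted p = 3.19e-13, edgeR). Without untreated replicate 2, the lowest of the group, it fell just short of that threshold and was no longer called. NCAM2 had few counts, 7.25, 10.5 and 10.5 untreated and 14.4, 28.9 and 25.9 treated after normalization. Its lowest treated library lay just above the highest untreated one, and it was up-regulated with a log2 fold change of 1.28 ± 0.32 (adjusted p = 0.00162, edgeR). In the CADM family, whose proteins (SynCAMs) join membranes in neurons and epithelia, CADM2 had 34.2, 37.7 and 26.2 untreated and 110.2, 96.3 and 104 treated normalized counts. It was clear of overlap and up-regulated, with a log2 fold change of 1.66 ± 0.16 (adjusted p = 7.36e-09, edgeR). CADM1, which had the most counts of the family, had 1769.7, 1807 and 1816 untreated and 1788, 1781 and 1845 treated normalized counts. The conditions overlapped in CADM1, and the log2 fold change of 0.0057 had an interval of -0.08 to 0.09 (2 standard errors on each side, adjusted p = 0.918, edgeR), which passed the test as 0.14 with library totals and 0.27 with ribosomal protein genes as the scale. CADM4 was higher by 0.23 (adjusted p = 0.0108, edgeR), but did not pass the adjusted p with DESeq2 or without untreated replicate 1 (log2 fold change 0.16).

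On the scaffold side, SHANK1 and SHANK2 rose strongly beside a well-counted SHANK3. SHANK proteins are the large platforms at the base of the postsynaptic density. SHANK1, at chr19:50659255-50719802 (minus strand), had 22.8, 31.4 and 17.8 untreated and 189.8, 187 and 181 treated normalized counts, and SHANK2, at chr11:70467854-71253234 (minus strand), had 32.1, 34.5 and 27.3 and 179, 168 and 188. All treated libraries were several times above all untreated ones in both genes. SHANK1 had a log2 fold change of 2.95 ± 0.15 (adjusted p = 3.57e-13) and SHANK2 of 2.50 ± 0.14 (adjusted p = 9.41e-13), both in edgeR. SHANK1 overlaps C19orf81 on the opposite strand, and C19orf81 was higher by 0.42 on the log2 scale. SHANK3, at chr22:50672823-50733212 (plus strand), had 970.3, 813 and 789 untreated and 1109.9, 1005 and 949 treated normalized counts. The highest untreated library lay above the lowest treated one, and SHANK3 was higher by 0.25 ± 0.074 (adjusted p = 0.00701, edgeR). Per kilobase SHANK3 stayed the main SHANK transcript, although its share of the family fell from 93.8% ± 1.4 to 72.4% ± 1.4.

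The DLGAP proteins, also called SAPAPs or GKAPs, repeated this pattern of a rare gene with a strong increase and an abundant gene with a mild one. DLGAP3, at chr1:34865436-34929650 (minus strand), had 14.5, 13.6 and 10.5 untreated and 124, 101 and 118 treated normalized counts. It stood apart in all libraries and was up-regulated 8.87-fold, with a log2 fold change of 3.14 ± 0.19 (adjusted p = 4.89e-12, edgeR). DLGAP4 had 716, 590.5 and 592 untreated and 1017, 1014 and 970.0 treated normalized counts. Each treated library exceeded each untreated one, and DLGAP4 was higher by 0.66 ± 0.065 on the log2 scale (adjusted p = 1.3e-08, edgeR). A transcript on the opposite strand of DLGAP4, DLGAP4-AS1, had at most 12.6 normalized counts in a library. DLGAP1 and DLGAP2 were under the filter.

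**Figure D3:**
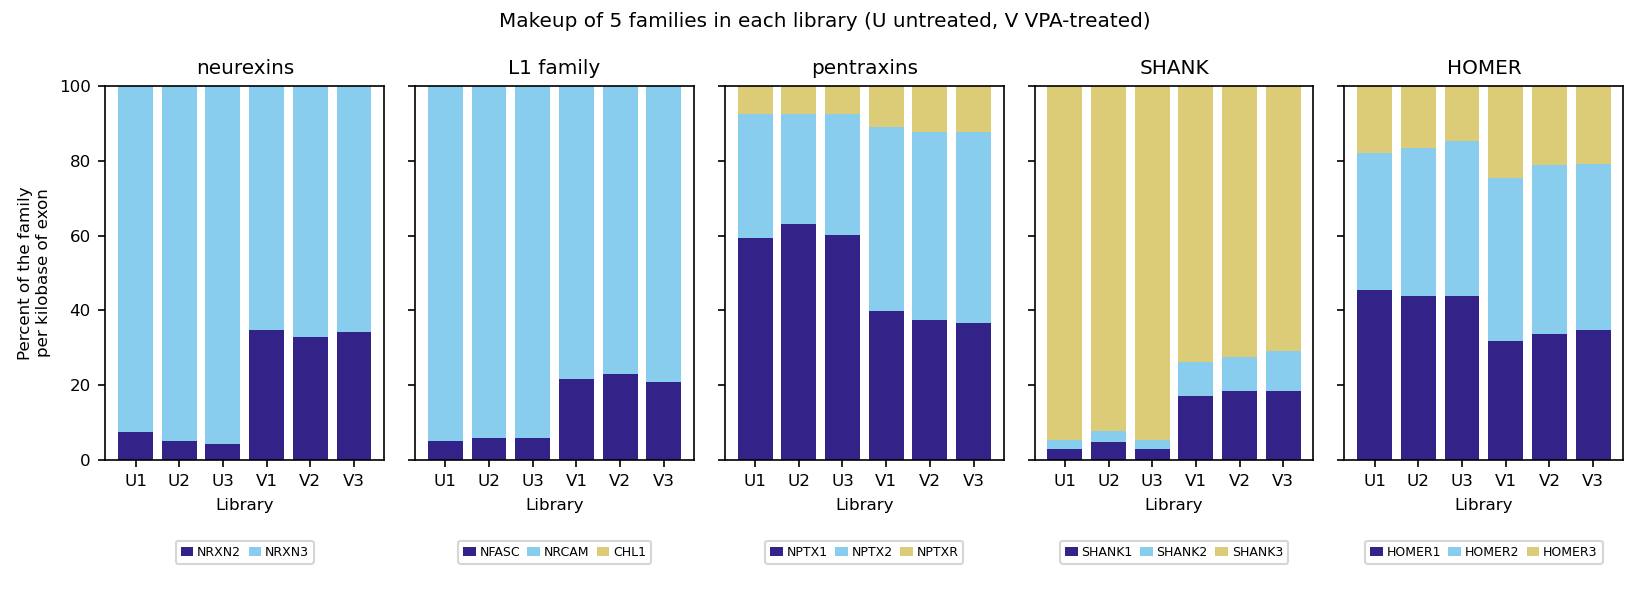
Percent that each member takes of its family in each library, after division of the counts by the kilobases of the joined exons, for 5 families with bars for 3 untreated (U) and 3 VPA-treated (V) libraries. NRXN2, NFASC, SHANK1 and SHANK2 widen from thin bands to visible parts in all treated libraries, and HOMER1 narrows from a mean of 44.3% to 33.5%.

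Of the DLG genes, whose products carry PDZ domains that bind receptor tails, DLG4 was the 1 that passed the test. DLG4, coding for PSD-95, the main scaffold of excitatory synapses, had 122, 114 and 119.7 untreated and 184, 166 and 161 treated normalized counts. The groups were separate, and DLG4 was higher by 0.52 ± 0.1 on the log2 scale (adjusted p = 0.000156, edgeR). It overlaps ACADVL, which has many more counts, on the opposite strand, and ACADVL was higher by 0.22. DLG5 had 2499, 2482 and 2538 untreated and 2666, 2445 and 2437 treated normalized counts, and DLG1 had 1000.3, 1021 and 1152 and 962, 1063 and 1100.3. Neither pair of groups was separate, with a log2 fold change of 0.0058 and an interval of -0.08 to 0.09 for DLG5 and of -0.022 and -0.14 to 0.10 for DLG1 (2 standard errors on each side). With ribosomal protein genes as the scale both passed, at 0.27 for DLG5 and 0.24 for DLG1, and DLG5 also with library totals at 0.14. DLG2 had 31.1, 30.4 and 44.1 untreated and 31.6, 36.6 and 26.8 treated normalized counts, also overlapping. Its log2 fold change of -0.15 had an interval of -0.57 to 0.27, which is wide because few counts fell on this gene. The sum of the listed DLG genes was 3718 ± 117 normalized counts in untreated and 3760 ± 73.5 in treated cells (SD, n = 3 each), and DLG5 and DLG1 held most of it. The antisense transcript DLG1-AS1 had at most 4.14 normalized counts in a library, MIR4500HG opposite SLITRK5 at most 3.15 and NCAM1-AS1 at most 7.71.

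The HOMER genes moved in both directions. HOMER1, which binds metabotropic glutamate receptors and SHANK proteins, had 733, 661 and 679 untreated and 570.3, 616 and 636 treated normalized counts. All treated libraries lay below the untreated ones by a small margin, and HOMER1 was lower, with a log2 fold change of -0.19 ± 0.061 (adjusted p = 0.0111, edgeR), which was 0.076 with ribosomal protein genes as the scale and -0.14 without VPA-treated replicate 1, neither of them past the threshold. HOMER2 had 1428, 1449 and 1549.7 untreated and 1887, 1995 and 1958 treated normalized counts, and HOMER3 had 163, 142 and 129 and 247, 218 and 214. In both the treated libraries were the higher ones without overlap. HOMER2 was higher by 0.40 ± 0.046 (adjusted p = 1.6e-07) and HOMER3 by 0.65 ± 0.1 (adjusted p = 1.03e-05), both in edgeR. Gephyrin, the scaffold of inhibitory synapses and an enzyme of molybdenum cofactor synthesis in many tissues, had 889, 963 and 1030.0 untreated and 991, 1066 and 1157 treated normalized counts for its gene GPHN. The conditions overlapped, and GPHN was higher by 0.16 ± 0.062 on the log2 scale (adjusted p = 0.0317, edgeR). GPHN no longer passed the adjusted p with DESeq2 (log2 fold change 0.13). Nor did it pass without untreated replicate 1 (0.098), untreated replicate 2 (0.15), VPA-treated replicate 2 (0.16) or VPA-treated replicate 3 (0.097).

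The strongest changes were in genes with few counts in untreated cells. The genes were put in classes by their mean over all 6 libraries, so the VPA-treated counts helped to place them. Among genes with a mean under 100 normalized counts 29.1% of all genes tested were up-regulated, and 5 of the 7 tested members were, 4 of 5 adhesion genes and 1 of 2 scaffold genes. From 100 to under 1000 the share over all genes was 8.84%, and 8 of 19 members were up-regulated, 6 of 12 adhesion and 2 of 7 scaffold genes. At 1000 or more it was 0.732%, and 2 of 10 members were up-regulated, CNTNAP2 and NCAM1, both of them adhesion genes, while the 4 scaffold genes of that level, DLG1, DLG5, GPHN and HOMER2, were not. Below 100 counts, 4 of the 5 up-regulated members, SLITRK1, SLITRK6, NCAM2 and DLGAP3, passed the filter only with their VPA-treated libraries. Of these, DLGAP3 had 2 untreated libraries at the filter and SLITRK1 had 1. The others of the class are CADM2, which was up-regulated, and LRRTM4 and DLG2, and nothing is read from the members of that class. In the 2 classes above it the medians of the members lay over those of all genes, at 0.81 against 0.05 and 0.30 against -0.15 on the log2 scale. In those classes too, some up-regulated members were placed by their treated counts. NRXN2, NFASC, SHANK1 and SHANK2 had untreated means of 28.2, 60.2, 24.0 and 31.3, below 100. Those of CNTNAP2 and NCAM1 were 990.5 and 785, below 1000. The shares and medians by class are thus a description, partly set by how the classes were cut. Across the 36 tested members the log2 mean untreated count and the log2 fold change had a Pearson r of -0.73 and a Spearman rho of -0.66, and across all 15298 genes -0.55 and -0.50, where the untreated level enters both quantities and genes are not independent replicates. The length of the gene on the genome, on a log10 scale, was weakly related to the fold change, with r of -0.27 and rho of -0.20 over the 36.

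**Figure D4:**
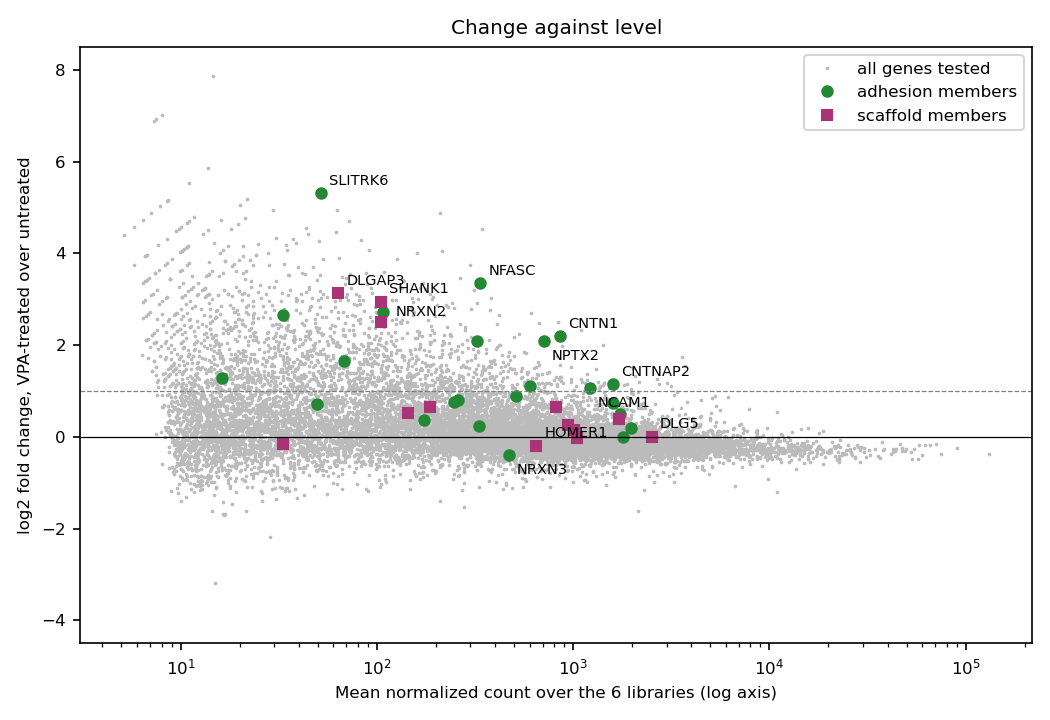
Log2 fold change (VPA-treated over untreated) against the mean normalized count over the 6 libraries (log axis) for all 15298 genes tested in grey, the adhesion genes as circles and the scaffold genes as squares. The cloud narrows with rising count, and members such as NFASC, CNTN1 and NPTX2 lie at its upper edge, while DLG5, the most counted scaffold gene, lies near 0 in the midst of it.

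A further list of 63 genes with the same kinds of function, none of them among the 50, was looked at for comparison. Of its 54 tested genes 20 were up-regulated, against 12.0% of all genes tested, 35 were higher (32.9%) and 8 were lower (30.0%), with a median log2 fold change of 0.34. The 38 other adhesion genes had 30 tested, of which 14 were up-regulated, 22 higher and 3 lower, with a median of 0.49. The 25 other scaffold genes had 24 tested, of which 6 were up-regulated, 13 higher and 5 lower, with a median of 0.20. Among the genes called, LRFN2, IGSF21, NTNG1 and IQSEC3 had at most 9 counts in any untreated library and passed the filter only with the VPA-treated libraries. They had to differ in order to be tested, so the counts of this list describe the genes that passed. Those with the largest fold changes among the adhesion genes were LRFN2, IGSF21 and FLRT1. LRFN2, a binding partner of PSD-95, had 1 count in untreated and 85 in treated cells, a ratio of 78.1 with an exact interval of 13.7 to 3122 (95%). IGSF21 went from 2.10 ± 1.82 to 25.0 ± 4.14 normalized counts, a log2 fold change of 3.50 (adjusted p = 7.39e-07, edgeR), and FLRT1 from 31.7 ± 2.40 to 189 ± 3.92, a log2 fold change of 2.57 (adjusted p = 2.67e-13, edgeR). Among the scaffold genes they were SYNPO, a spine protein that binds actin (3.27), GRIP2, which binds AMPA receptors (2.73), and IQSEC3, which binds gephyrin (2.18). The most counted genes of the 2 kinds changed little. PTPRF, a receptor tyrosine phosphatase that binds SLITRK proteins, was higher by 0.29 on the log2 scale, and IQSEC1, an exchange factor for ARF GTPases, had a log2 fold change of 0.013 with an interval of -0.07 to 0.10.

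Of the members that could not be tested, several had their counts mostly in treated cells. LRRTM3 had 1 count in untreated and 25 in VPA-treated cells, a ratio of 23.0 with an exact interval of 3.76 to 944, and DLGAP1 had 2 and 25, a ratio of 11.5 with an interval of 2.87 to 100.1. Both were past the adjusted p without the filter in edgeR (2e-05 and 0.00012) and with DESeq2 (0.0053 and 0.016). LRRTM1 had 2 and 13 counts, CNTN4 and CADM3 each 0 and 7, and DLGAP2 4 and 13. LRRTM2 had 21 counts in each condition, a ratio of 0.919 with an interval of 0.478 to 1.77. CNTN2, CNTN3 and CNTNAP5 had 0 and 2 counts and CNTN5 1 and 1, and CNTN6, CNTNAP4 and CHL1 were listed at 0, where a count of 0 in a library allows up to 3 counts. At this depth a decrease, or an increase by a few counts, was not detectable in those 7 genes. LRRTM2, LRRTM3, DLGAP1 and DLGAP2 each overlap a transcript on the opposite strand with counts of its own, for LRRTM2 the abundant CTNNA1. CTNNA3, opposite LRRTM3, was up-regulated, from 19 to 60 counts, with a log2 fold change of 1.52 (adjusted p = 0.000704, edgeR). CTNNA1 and ERICH1, the partner of DLGAP2, did not pass the test, and DLGAP1-AS1 was under the filter. CHL1, CNTN6 and CNTN4 lie in this order near the end of chromosome 3, between 196763 and 3057959, and between them had 7 counts over the 6 libraries.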

How the data were processed

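RNA-seq of 3 untreated and 3 VPA-treated HEK293T libraries was analysed. Per the labels, mRNA libraries were strand-specific and made on the DNBSEQ platform, and STAR 2.7.10b and HTSeq 2.0.1 are named for the human genome hg38, although the study's methods name another HTSeq release. The authors deposited raw counts per gene for each library, without normalization. The annotation and strand setting of the counting are not given in the sources used here. The 5 summary lines that name no gene were left out (per library, 6.80% to 7.69% no feature, 1.97% to 2.10% ambiguous and 2.81% to 2.92% not unique). Libraries of a condition differed by more than sampling noise (chi-square per gene 1.57 to 4.47).

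The test was edgeR 4.0.16 under R 4.3.3 (TMM, filterByExpr with a count minimum of 10, robust quasi-likelihood fit, prior count 0.125, condition as the single term). Standard errors were taken as the log2 fold change over the root of F. The biological coefficient of variation was 3.83%. Alternatives were DESeq2 1.42.0, other scalings, filters and thresholds, a prior count of 2, glmTreat, the replicate number as a block, and each library left out. On simulated counts for this comparison at a fold of 4, edgeR recovered 200 of 200 changed genes and called 1 unchanged gene over 15190 genes, and DESeq2 recovered 200 with 0 over 20447. The changed genes were drawn from those averaging at least 50 counts, with the same spread set for all genes. Recovery among genes with fewer counts was not tested. Exon and coding lengths and overlaps are from GENCODE 44, and RefSeq on GRCh38.p14 gave coordinates for all 50 genes, by symbol, and promoters for 38. CNTNAP2 has 1 and DLGAP2 5 further lines for other assembly units, all at 0, which were not used.

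Values per library are given for genes called, for genes that were lower, for every scaffold gene tested and for the most counted gene of each family. Of other synaptic genes, at most the 3 called with the largest fold change and the most abundant are named. The members and all gene lists were chosen with earlier results of these data known. 1 marker gene is not reported here. No set test was run.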

Additional observations from a re-analysis of the deposited data

How the results depend on the processing

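The counts of up-regulated and down-regulated members stayed within 1.5 times their values under all alternatives, with 14 to 16 of the members up-regulated when a library was left out. With glmTreat 12 of the 15 remained, without NCAM1, NCAM2 and NRCAM, ribosomal protein scaling added NLGN1, CNTNAP1, SLITRK3 and NPTX1, library totals SLITRK3 alone, and DESeq2 and no filter, at 17 and 20, genes not tested otherwise. Over all genes, the 1833 up-regulated were 1179 (8.49%) among those with 10 counts in all libraries, with 12 members, and 974 (7.98%) among those averaging 50, with 13. Over the 36 members followed, 36 of 570 comparisons changed their side of the adjusted p (11 weaker, 4 stronger) or their sign (21), in 8 genes whose changes were small. The low counts limit the 14 genes not tested.

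The number of lower members, 2, was 1 with upper quartile and library totals, 0 with ribosomal protein scaling and 1 to 2 with a library left out. Among adhesion genes it was 0 with ribosomal protein scaling, among scaffold genes 0 with upper quartile, library totals and ribosomal protein scaling and 0 to 1 with a library left out, and among the other synaptic genes 3 with ribosomal protein scaling. Library totals gave an adhesion median of 1.20 and ribosomal protein scaling one of 1.33, while it was 0.87 among genes that reached 10 counts in all libraries and 0.93 among those that averaged 50. The scaffold median was 0.50 with DESeq2, 0.47 with upper quartile, 0.53 by library totals, 0.66 by ribosomal protein scaling, 0.50 with no filter, 0.49 among genes averaging 50 counts and 0.37 to 0.46 with a library left out. The median of the other synaptic genes was 0.38 with DESeq2, 0.41 with upper quartile, 0.47 by library totals, 0.61 by ribosomal protein scaling and 0.39 with no filter. Shifts with scaling follow from the scaling itself, which moved the median of all genes, and filters changed which genes were tested.

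The sign of the log2 fold change reversed for 5 genes. DLG1 was 0.044 with upper quartile, 0.11 by library totals, 0.24 by ribosomal protein scaling, 0.00081 among genes with 10 counts in all libraries, 0.013 among genes averaging 50 counts and -0.067 to 0.037 with a library left out. DLG2 was 0.11 with ribosomal protein scaling and -0.27 to 0.037 with a library left out. DLG5 was -0.019 with DESeq2, -0.0082 with DESeq2 size factors, -0.016 with no filter and -0.038 to 0.027 with a library left out. CADM1 was -0.019, -0.0081 and -0.016 under the same 3 settings and -0.012 to 0.014 with a library left out. HOMER1 was 0.076 with ribosomal protein scaling. Apart from the scaling, the cause was not tested.

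The share of a family in treated cells depends on the length used. With the longest transcript it was 45.6% for NRXN2, 32.5% for NFASC, 78.1% for SHANK3 and 25.7% for HOMER1, and with the longest coding sequence 29.7%, 43.9%, 77.7% and 21.9%.

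The replicate block, with the replicate number as a term, left 15 members up-regulated, 30 higher and 2 lower. The correlation r of the deviations was 0.32, 0.089 and 0.24 for libraries sharing a number and -0.26 to 0.045 for the rest, so each library correlated best with its own number. The main test did not pair the libraries, and whether the numbers mark a pairing was not settled.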
